A study of Mus musculus with 8 samples.

Results

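The 9 genes described here are C3, C4b, Serping1, C1qa, C1qb, C1qc, Cfp, Cfd and Lbp, which encode proteins of the complement system and a plasma protein that binds bacterial lipopolysaccharide. They were taken by name from the 19065 genes of the count matrices of mouse colon, and all 9 were present in all 8 matrices. The barcodes that carry them were sorted by 6 other genes into 3 groups: Mrc1 or Stab1, which mark tissue macrophages, Col3a1 or Pi16, which mark fibroblasts, and Epcam or Muc2, which mark epithelium. The 9 genes had been proposed as genes of stroma and epithelium. Barcodes with none of the 6 sorting genes held more of their UMIs than any sorted group, and Epcam/Muc2 barcodes held few, with 15 of 368 UMIs of C3 and 9 of 128 UMIs of Lbp. Macrophage barcodes carried C4b, C1qb and Cfp.

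The samples were colons of C57BL/6 mice, 4 fed fish oil with pectin and 4 fed corn oil with cellulose, all for 3 weeks, with no other treatment or allele named in the labels. Each mouse gave 1 library, made with a probe-based kit for fixed tissue from 2 sections, 50 µm thick, of its rolled colon in paraffin. By its title the study concerns ferroptosis of colonocytes and the risk of colon cancer. For the complement genes the diet comparison asks whether local complement transcripts differ between the 2 diets.

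Complement is a set of plasma and tissue proteins that tag microbes and dying cells, recruit leukocytes and can puncture membranes. The classical pathway starts when C1q, built from the chains encoded by C1qa, C1qb and C1qc, binds a target and its proteases cut C4, and all pathways meet when C3 is cut. The alternative pathway amplifies C3 cutting with factor D (Cfd) and properdin (Cfp), and C1 inhibitor (Serping1) blocks the C1 proteases. Liver is the main source of plasma complement, while macrophages are known to make C1q and stromal cells to make C3 within tissues.

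The 8 libraries held 8588 barcodes, 290 to 969 per fish oil/pectin mouse and 106 to 5180 per corn oil/cellulose mouse. Depth ran from 34758 to 200700 UMIs (tags that each stand for 1 counted RNA molecule) per fish oil/pectin mouse and from 81400 to 245476 per corn oil/cellulose mouse. Corn oil/cellulose mouse 1 had a median of 26 UMIs per barcode, and the medians of the other 7 mice ran from 93 to 528.5. The labels name no pools, so 2 pools of 4 libraries were inferred as the split with the most sharing of droplet barcodes. It put fish oil/pectin mouse 1 and corn oil/cellulose mice 1, 2 and 3 in pool 1 and the other 4 mice in pool 2. Within the pools 189 droplet barcodes were shared, against 24 between them, and 6 whole barcodes were shared by libraries. These counts do not test the split, which was chosen on such sharing. Fish oil/pectin mouse 4 was placed on few, with 6, 4 and 3 shared with the mice of its pool and 3 with corn oil/cellulose mouse 1. With this split, pool and diet are partly confounded. The labels call the samples colonocytes, while Epcam/Muc2 barcodes made up 15.4% of all barcodes and haemoglobin genes took 0.0135% to 54.3% of the UMIs of a library.

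A barcode entered a group when it held at least 1 UMI of that group's genes and none of the other 4. This gave 34 Mrc1/Stab1 barcodes with 6020 UMIs, 224 Col3a1/Pi16 barcodes with 43726 UMIs and 1319 Epcam/Muc2 barcodes with 387797 UMIs. Another 43 barcodes held genes of more than 1 group, and 6968 barcodes with 701157 UMIs held none of the 6 genes and are called unsorted here. The group names were checked on marker genes that were not used for sorting. All 8 other macrophage markers in the files were higher in Mrc1/Stab1 barcodes than in the remaining barcodes, all 9 other fibroblast markers were higher in Col3a1/Pi16 barcodes, and all 10 other epithelial markers were higher in Epcam/Muc2 barcodes. The Col3a1/Pi16 barcodes also held all 4 markers of the mesothelium, the lining of the outer gut wall, at 4.57 UMIs per 10000, against 0.331 in the remaining barcodes.

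**Figure D1:**
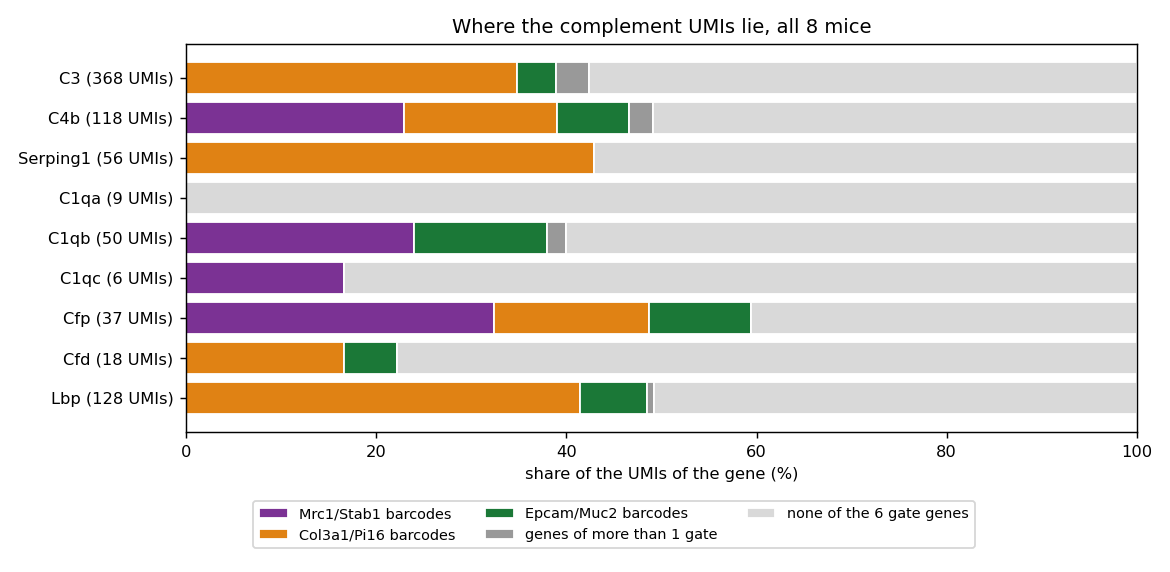
Share of the UMIs of each complement gene, in percent on the horizontal axis, that lay in each barcode group, with all 8 mice summed and the number of UMIs beside the gene. Epcam/Muc2 barcodes held 4.08% of C3 UMIs and 7.03% of Lbp UMIs, and unsorted barcodes held the largest share of all 9 genes.

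C3 (chr17:57203970-57228136, minus strand; positions here are those of GENCODE M21 on GRCm38, all of protein-coding genes) encodes the central protein of all complement pathways. It was the member with the most UMIs, 368 in 153 barcodes, and 88 of these barcodes held 1 UMI of it. Mrc1/Stab1 barcodes held 0 C3 UMIs, which is read against a limit of 3 UMIs, or 4.98 per 10000 UMIs of the group. The upper end of the exact Poisson 95% interval was higher, at 6.13. Col3a1/Pi16 barcodes held 128 UMIs, or 29.3 per 10000 (exact Poisson 95% interval 24.4 to 34.8, which covers counting error only, as do all intervals given for counts). Epcam/Muc2 barcodes held 15 UMIs, or 0.387 per 10000 (0.216 to 0.638). The level in Col3a1/Pi16 barcodes was thus 75.7-fold that in Epcam/Muc2 barcodes, and 47.5-fold without corn oil/cellulose mouse 1.

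The 250 bases before the C3 start are shown because C3 and C1qb differed among sorted barcodes. C3 had most sorted UMIs in Col3a1/Pi16 and C1qb in Mrc1/Stab1 barcodes, while unsorted barcodes held 57.6% and 60% of their UMIs. RefSeq gives this window on GRCm38.p6 as chr17:57228137-57228386, minus strand, and capitals mark matches to TTNNGNAA, the core motif of the C/EBP family, which was searched on both strands.
C3: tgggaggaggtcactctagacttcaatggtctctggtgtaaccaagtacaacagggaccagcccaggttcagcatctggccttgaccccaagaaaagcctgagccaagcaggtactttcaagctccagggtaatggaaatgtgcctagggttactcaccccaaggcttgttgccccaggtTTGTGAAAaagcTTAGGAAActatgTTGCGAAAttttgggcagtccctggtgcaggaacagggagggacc
C3 holds 3 matches, starting 70, 58 and 45 bases before the start, that do not overlap. Of 32851 promoter windows of the same length in the RefSeq table, 36.8% hold at least 1 match and 2.61% hold at least 3. A match is a description of the letters and shows no binding.

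C3 was higher in Col3a1/Pi16 than in Epcam/Muc2 barcodes in 7 of 8 mice, and corn oil/cellulose mouse 3 held none in either. In the Col3a1/Pi16 barcodes C3 stood at 27.6, 7.70, 13.5 and 5.55 UMIs per 10000 in fish oil/pectin mice 1 to 4, against 78.4, 27.6, 0 and 3.02 in corn oil/cellulose mice 1 to 4. The diets overlapped, and the highest and the lowest value were both in corn oil/cellulose mice. The share of Col3a1/Pi16 barcodes with a C3 UMI was 21.4% (48 of 224), against 0.682% of Epcam/Muc2 barcodes (9 of 1319). After thinning every barcode to 100 UMIs the shares were 17.6% (21 of 119) and 1.54% (6 of 390). Of 1190 barcodes with at least 50% haemoglobin UMIs, which as red cell barcodes should lack C3, 0 held it, which allows a share of up to 0.252%. Their median depth was 255.5 UMIs, against 144.5 in Col3a1/Pi16 and 100 in Epcam/Muc2 barcodes. By definition at least 50% of their UMIs were haemoglobin, so fewer were left for other genes. Corn oil/cellulose mouse 1, with 67.4% of all C3 UMIs, had 5.08% haemoglobin UMIs, so the 0 is a weak check.

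The Epcam/Muc2 counts of C3 came in part from 1 barcode of fish oil/pectin mouse 4. This barcode held 629 UMIs, of which 101 were of Alb, Apoa1 and Ttr, plasma protein genes made by hepatocytes, and it carried 5 UMIs of C3, 3 of C4b and 3 of Lbp. Without it, and without a second such barcode that was unsorted, the Epcam/Muc2 group held 10 C3 UMIs (0.258 per 10000, 0.124 to 0.475), 6 C4b UMIs and 6 Lbp UMIs.

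Unsorted barcodes held 212 C3 UMIs in 88 barcodes, 173 of them in corn oil/cellulose mouse 1. Of these 88 barcodes, 20.5% held a UMI of the 9 fibroblast markers, against 1.96% of the other unsorted barcodes. The 4 mesothelial markers were found in 13.6% of them, against 0.203% of the others, and the 8 macrophage markers in 1.14%, against 0.581%. The 10 epithelial markers were found in 27.3% of them, against 34.5% of the others. The part of mesothelial cells in the C3 counts was not tested. The 2 barcodes richest in member UMIs were an unsorted one of corn oil/cellulose mouse 1, with 15 UMIs of C3 and 9 of Lbp among 278 UMIs, and a Col3a1/Pi16 one of corn oil/cellulose mouse 2, with 22 UMIs of C3, 4 of fibroblast markers and 5 of mesothelial markers among 707 UMIs.

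Lbp (chr2:158306493-158332852, plus strand) encodes lipopolysaccharide-binding protein, which hands bacterial lipopolysaccharide to Cd14 and is best known as a liver protein of the acute phase. It had 128 UMIs in 63 barcodes. Col3a1/Pi16 barcodes held 53 of them, or 12.1 per 10000 (9.08 to 15.9), against 9 in Epcam/Muc2 barcodes, or 0.232 per 10000 (0.106 to 0.441). The ratio was 52.2, and 16.4 without corn oil/cellulose mouse 1, which held 42 of the 53 UMIs. Folds given as at least take the observed level without its counting error and read 0 UMIs as 3, below the upper end of the exact interval. Mrc1/Stab1 barcodes held 0, which puts Lbp at least 2.43-fold lower there than in Col3a1/Pi16 barcodes. Without corn oil/cellulose mouse 1 no such bound is left, since the 3.15 per 10000 in Col3a1/Pi16 barcodes lies under the limit of 7.47 that 0 UMIs allow in Mrc1/Stab1 barcodes.

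In Col3a1/Pi16 barcodes Lbp had 1, 0, 1 and 4 UMIs in fish oil/pectin mice 1 to 4, against 42, 5, 0 and 0 UMIs in the corn oil/cellulose mice 1 to 4. Over all mice it was higher there than in Epcam/Muc2 barcodes in 5 of 8 mice and lower in 2. Lbp and C3 shared 39 barcodes, 61.9% of the barcodes with Lbp and 25.5% of those with C3, in 4 mice. The proteins and receptors that act with Lbp were sparse: Tlr4 had 21 UMIs, Ly96 19, Cd14 8 and Bpi 2, and 0 of these lay in Mrc1/Stab1 barcodes. Of the 21 Tlr4 UMIs, 10 lay in Epcam/Muc2 barcodes. Fibroblast markers were found in 30.2% of barcodes with Lbp, against 3.46% of all others, and mesothelial markers in 4.76%, against 0.457%.

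Serping1 (chr2:84765387-84775444, minus strand) encodes C1 inhibitor. It had 56 UMIs in 45 barcodes, of which 24 UMIs lay in Col3a1/Pi16 barcodes (5.49 per 10000, 3.52 to 8.17), 0 in Mrc1/Stab1 barcodes and 0 in Epcam/Muc2 barcodes. Against the limit of 3 UMIs over the group, the level in Col3a1/Pi16 was at least 71.0-fold higher than in Epcam/Muc2 barcodes, and at least 41.8-fold without corn oil/cellulose mouse 1. Its Col3a1/Pi16 UMIs numbered 2, 0, 3 and 1 in fish oil/pectin mice 1 to 4, against 12, 6, 0 and 0 in corn oil/cellulose mice 1 to 4. Of the barcodes with Serping1, 44.4% held a fibroblast marker, against 3.44% of all others, 8.89% held a mesothelial marker, against 0.445%, and 40% also held C3. The part of mesothelial cells in the Lbp and Serping1 counts was not tested either.

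C4b (chr17:34728380-34743882, minus strand) encodes complement C4, which the C1 proteases cut. Its near copy C4a was not among the genes of the matrices. Whether the C4b probes also count C4a transcripts was not checked, so the C4b counts are uncertain in that respect. C4b had 118 UMIs in 75 barcodes. Mrc1/Stab1 barcodes held 27 of them, or 44.9 per 10000 (29.6 to 65.3), Col3a1/Pi16 barcodes held 19, or 4.35 per 10000 (2.62 to 6.79), and Epcam/Muc2 barcodes held 9, or 0.232 per 10000 (0.106 to 0.441). Without corn oil/cellulose mouse 1 these levels were 52.3, 4.29 and 0.164 per 10000. The level in Mrc1/Stab1 barcodes was 193-fold that in Epcam/Muc2 barcodes and 10.3-fold that in Col3a1/Pi16 barcodes, and 318-fold that in Epcam/Muc2 barcodes without that mouse.

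In Mrc1/Stab1 barcodes C4b had 0, 1 and 1 UMIs in fish oil/pectin mice 2, 3 and 4, from 2, 1 and 2 barcodes, against 6, 11 and 8 UMIs in corn oil/cellulose mice 1, 2 and 4, from 16, 10 and 3 barcodes. Fish oil/pectin mouse 1 and corn oil/cellulose mouse 3 had no Mrc1/Stab1 barcode. C4b was higher in Mrc1/Stab1 than in Epcam/Muc2 barcodes in 5 of these 6 mice and lower in 1. The share of Mrc1/Stab1 barcodes with C4b was 41.2% (14 of 34), and 43.8% (7 of 16) after thinning. It was 0.0840% (1 of 1190) in barcodes led by haemoglobin. Macrophage markers were found in 21.3% of barcodes with C4b, against 0.705% of all others, fibroblast markers in 17.3%, against 3.54%, and adipocyte markers in 12%, against 1.68%. Among the 40 unsorted barcodes with C4b, adipocyte markers were found in 17.5%, against 1.02% of the other unsorted barcodes. Fibroblast markers were found in 12.5%, against 2.14%, macrophage markers in 10%, against 0.534%, and epithelial markers in 17.5%, against 34.5%. The part of these cell types in the C4b counts was not tested.

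C1qa (chr4:136895917-136898803, minus strand), C1qb (chr4:136880129-136886187, minus strand) and C1qc (chr4:136889804-136893065, minus strand) lie side by side and encode the 3 chains of C1q. C1qb had 50 UMIs in 39 barcodes, C1qa 9 UMIs in 7 barcodes and C1qc 6 UMIs in 6 barcodes. Of the C1qb UMIs 12 lay in Mrc1/Stab1 barcodes, or 19.9 per 10000 (10.3 to 34.8), 0 in Col3a1/Pi16 barcodes and 7 in Epcam/Muc2 barcodes, or 0.181 per 10000 (0.0726 to 0.372). The level in Mrc1/Stab1 barcodes was 110-fold that in Epcam/Muc2 barcodes, and 205-fold without corn oil/cellulose mouse 1. Against the limit of 3 UMIs in Col3a1/Pi16 barcodes it was at least 29.1-fold higher than there, leaving out the counting error of the 12 UMIs. All 9 C1qa UMIs and 5 of the 6 C1qc UMIs lay in unsorted barcodes.

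C1qb in Mrc1/Stab1 barcodes had 0, 4 and 1 UMIs in fish oil/pectin mice 2, 3 and 4, against 3, 3 and 1 UMIs in corn oil/cellulose mice 1, 2 and 4. The 4 UMIs of fish oil/pectin mouse 3 came from 1 barcode. Of the barcodes with C1qb 25.6% held a macrophage marker, against 0.772% of all others, and 25.6% held a smooth muscle marker, against 7.98%. Among the 24 unsorted barcodes with C1qb, 50% held an epithelial marker, against 34.3% of the other unsorted barcodes. A smooth muscle marker was held by 33.3%, against 7.03%, and a macrophage marker by 16.7%, against 0.533%. Per 10000 UMIs, macrophage markers stood at 12.3 in them, against 0.750 in the other unsorted barcodes. Smooth muscle markers stood at 21.0, against 9.02, and epithelial markers at 30.8, against 72.9. The part of smooth muscle and epithelium in the C1qb counts was not tested. Macrophage markers were also found in 3 of the 7 C1qa barcodes and 3 of the 6 C1qc barcodes. C1qa shared 1 barcode with C1qb, and C1qc shared 2.

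The RefSeq windows of the 250 bases before C1qb and C1qc on GRCm38.p6 are chr4:136886201-136886450 and chr4:136892915-136893164, both on the minus strand, and the RefSeq start of C1qc lies inside the GENCODE gene. They are given to set beside that of C3, with capitals for TTNNGNAA and for GAGGAA, the core motif of PU.1, a factor of myeloid cells, searched on both strands and without overlap. C1qc had 1 UMI in Mrc1/Stab1 barcodes and 5 in unsorted ones, too few to place it in a group.
C1qb: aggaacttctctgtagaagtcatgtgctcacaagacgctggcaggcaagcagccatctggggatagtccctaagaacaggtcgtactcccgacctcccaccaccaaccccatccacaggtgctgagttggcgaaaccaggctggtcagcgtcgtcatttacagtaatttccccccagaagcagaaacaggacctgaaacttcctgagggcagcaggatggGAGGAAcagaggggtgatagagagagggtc
C1qc: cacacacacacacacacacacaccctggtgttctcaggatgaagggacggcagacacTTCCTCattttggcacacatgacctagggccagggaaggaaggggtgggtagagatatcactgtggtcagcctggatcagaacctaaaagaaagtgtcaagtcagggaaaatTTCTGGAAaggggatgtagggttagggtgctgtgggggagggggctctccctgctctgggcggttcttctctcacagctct
GAGGAA lies 30 bases before the start of C1qb and, on the other strand, 193 bases before that of C1qc, and C1qc also holds a TTNNGNAA match 81 bases before it. GAGGAA was found in 23.3% of all RefSeq windows. The C3 window holds none. The TATA motif TATAAA, found in 12.4% of windows, was in none of the 5 member windows that the table holds, those of C3, C1qb, C1qc, Cfp and Cfd.

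Cfp (chrX:20925454-20931555, minus strand) encodes properdin, which holds the C3-cutting enzyme of the alternative pathway together and is known from myeloid cells. It had 37 UMIs in 30 barcodes. Mrc1/Stab1 barcodes held 12 of them, or 19.9 per 10000 (10.3 to 34.8), Col3a1/Pi16 barcodes held 6, or 1.37 (0.504 to 2.99), and Epcam/Muc2 barcodes held 4, or 0.103 (0.0281 to 0.264). It was higher in Mrc1/Stab1 than in Epcam/Muc2 barcodes in 4 of 6 mice, with both at 0 in the other 2. Of its barcodes 30% held a macrophage marker, against 0.783% of all others, and 7 of them also held C4b. Neutrophil and monocyte markers were found in 10% of them, against 0.234%, and adipocyte markers in 13.3%, against 1.73%. Among the 14 unsorted barcodes with Cfp, 35.7% held an epithelial marker, against 34.4% of the other unsorted barcodes. An adipocyte marker was held by 28.6%, against 1.06%. Fibroblast and macrophage markers were held by 14.3% each, against 2.17% and 0.561%. Per 10000 UMIs, epithelial markers stood at 34.5 in these barcodes with Cfp, against 72.6 in the other unsorted barcodes. Adipocyte markers stood at 21.2, against 2.75, fibroblast markers at 5.30, against 2.68, and macrophage markers at 7.96, against 0.846. The part of cell types other than macrophages in the Cfp counts was not tested.

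Cfd (chr10:79890853-79892655, plus strand) encodes factor D, or adipsin, the protease of the alternative pathway known for its production by fat cells. It had 18 UMIs in 13 barcodes, 7 UMIs of them in fish oil/pectin mouse 1. Of its 13 barcodes 7 held a UMI of the 6 adipocyte markers, which is 53.8%, against 1.69% of all others. Adipocyte markers stood at 28.2 UMIs per 10000 in fish oil/pectin mouse 1, and the other 7 mice had 4.6 or less. Col3a1/Pi16 barcodes held 3 Cfd UMIs, Epcam/Muc2 barcodes 1 and Mrc1/Stab1 barcodes 0.

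**Figure D2:**
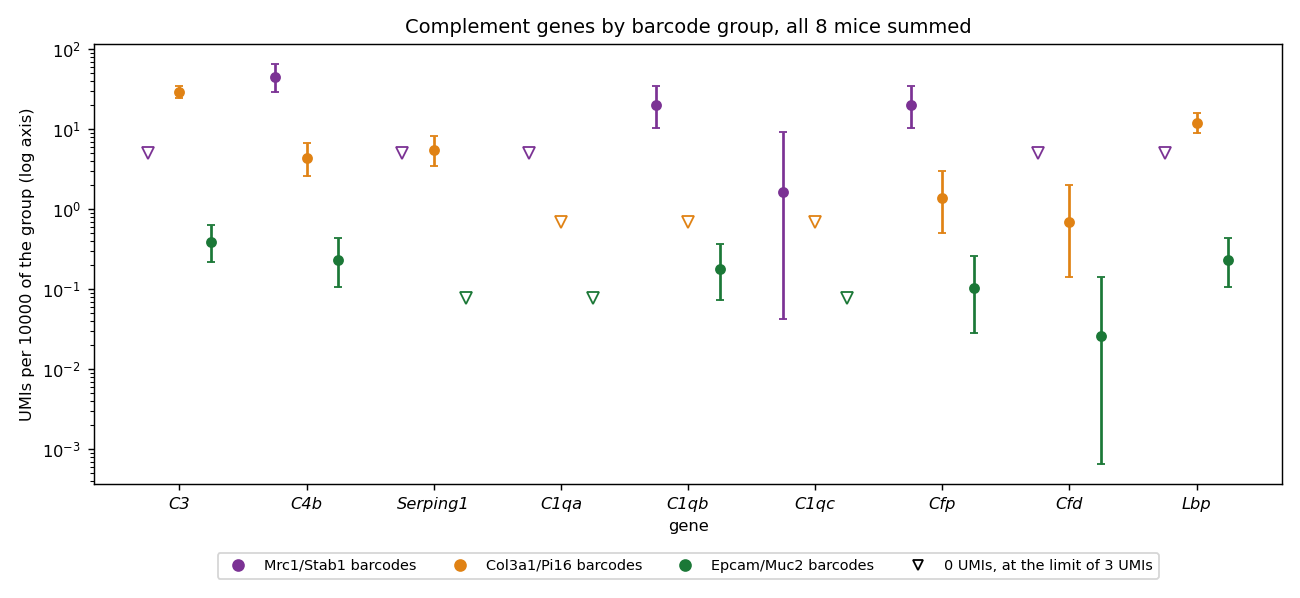
UMIs of each complement gene per 10000 UMIs of the barcode group, on a log axis, with all 8 mice summed. Points are levels with exact Poisson 95% intervals and open triangles stand for 0 UMIs, drawn at the limit of 3 UMIs. C3 stands at 29.3 in Col3a1/Pi16 barcodes and C4b at 44.9 in Mrc1/Stab1 barcodes, while all members lie below 0.4 in Epcam/Muc2 barcodes.

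**Figure D3:**
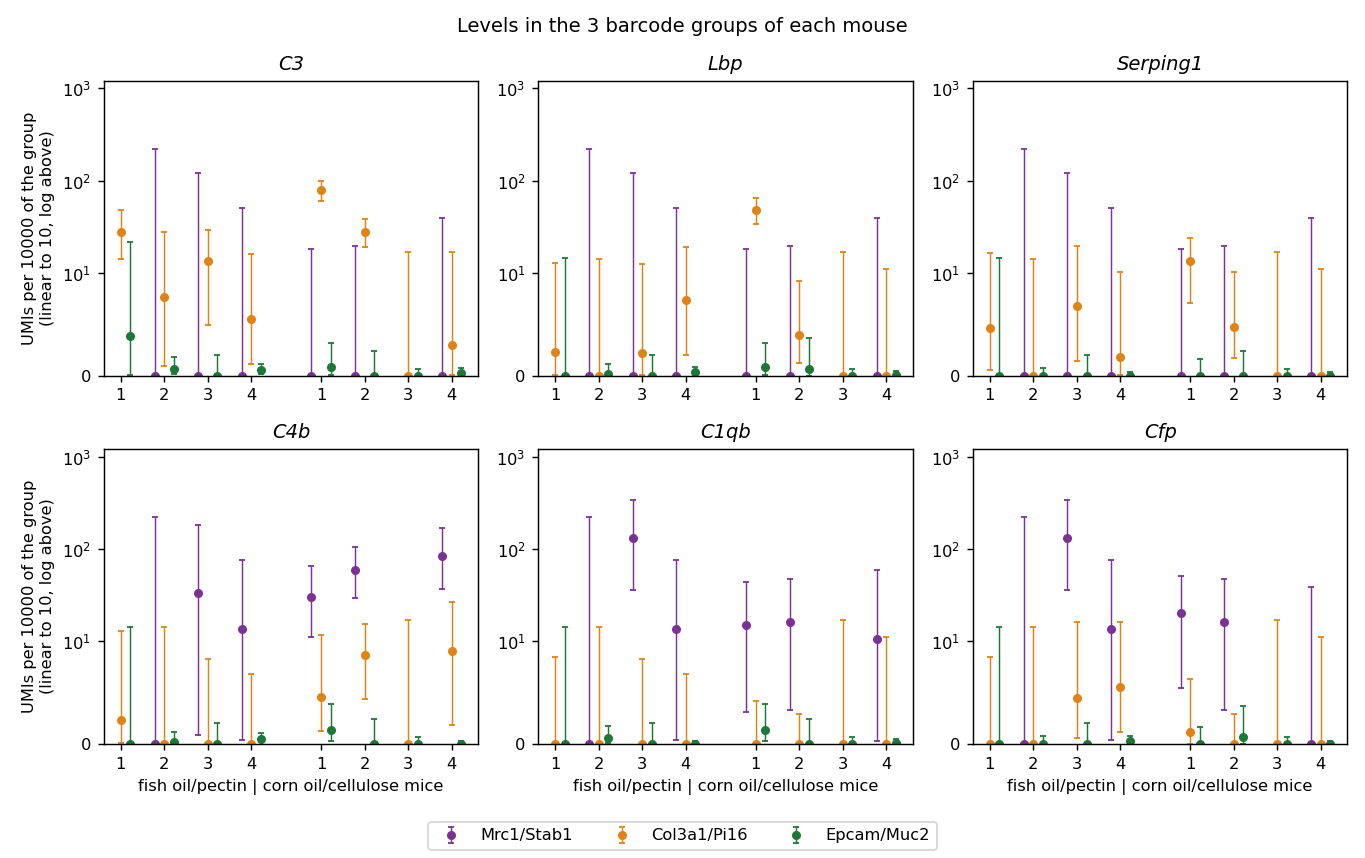
UMIs per 10000 UMIs of the barcode group in each mouse for 6 complement genes, on an axis that is linear to 10 and logarithmic above, with exact Poisson 95% intervals. Fish oil/pectin mice are on the left of each panel. C3 in Col3a1/Pi16 barcodes runs from 0 to 78.4 over the 8 mice, and no C3 lies in Mrc1/Stab1 barcodes.

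The sums of each mouse and group with at least 10 barcodes were compared in 1 fit with the mouse as a block. This left 12 sums of 5 mice, and Mrc1/Stab1 sums of corn oil/cellulose mice 1 and 2 only. Of the 9 members, C3 and C4b passed the filter on low counts, among 312 genes. In the Epcam/Muc2 sums of fish oil/pectin mice 1 to 3 and corn oil/cellulose mice 1 and 2, C3 had 1, 3, 0, 2 and 0 UMIs. With 0 in Mrc1/Stab1 barcodes, it passed only through its Col3a1/Pi16 sums. C4b had 0, 1, 0, 3 and 0 UMIs in these Epcam/Muc2 sums and passed through the other groups. Members this sparse in Epcam/Muc2 barcodes enter only when another group is higher, so their calls are no separate support for that. Between Col3a1/Pi16 and Epcam/Muc2 barcodes 40.1% of the genes tested were called (53 or 17% higher, and 72 or 23.1% lower), and C3 was among those called higher. Its log2 fold change was 4.42 (SE 0.96), with a Benjamini-Hochberg adjusted p of 0.000187 in edgeR's quasi-likelihood test. C4b had a log2 fold change of 2.10 (SE 1.21, adjusted p 0.162 in edgeR), which did not pass, while DESeq2 gave 3.74 (adjusted p 0.00633), which did.

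Between Mrc1/Stab1 and Epcam/Muc2 barcodes edgeR called 13.8% of genes (4 or 1.28% higher, and 39 or 12.5% lower), and neither member passed. C4b had a log2 fold change of 3.46 (SE 1.33, adjusted p 0.0567 in edgeR). It did pass in DESeq2 (6.33, adjusted p 0.000308), and in edgeR without fish oil/pectin mouse 2 (3.91, adjusted p 0.0311), without fish oil/pectin mouse 3 (3.61, adjusted p 0.0499) and with at least 5 barcodes per sum (3.80, adjusted p 0.0235). Between Mrc1/Stab1 and Col3a1/Pi16 barcodes edgeR called 3 of 312 genes (0.962%, with 0.321% higher and 0.641% lower), which were C3 and Hba-a2, lower, and Ctsc, higher (Hba-a2, a haemoglobin gene, and Ctsc, a lysosomal protease gene, are named after their values were seen). C3 had an adjusted p of 0.0374 in edgeR, and with 0 UMIs in Mrc1/Stab1 barcodes its level was at least 5.87-fold lower there, and at least 2.26-fold lower without corn oil/cellulose mouse 1. This call was lost in 6 of 11 alternatives: without fish oil/pectin mouse 1 (adjusted p 0.0526 in edgeR), without corn oil/cellulose mouse 1 (0.635), without corn oil/cellulose mouse 2 (0.217), with no filter on low counts (0.264), with at least 5 barcodes per sum (0.0922) and in DESeq2 (0.466). C4b, with a log2 fold change of 1.36 (SE 1.21, adjusted p 0.558 in edgeR), did not pass.

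These folds depend on the scaling of few and shallow sums. With median-ratio size factors the median log2 fold change of all genes between Col3a1/Pi16 and Epcam/Muc2 barcodes was 1.40, against -0.27 with TMM factors, and 111 genes were called higher and 14 lower. The log2 fold change of C3 was then 6.18 and that of C4b 3.75, and C4b passed (adjusted p 0.0118 in edgeR). Between Mrc1/Stab1 and Epcam/Muc2 barcodes that scaling gave 17 genes higher and 3 lower, a median of 0.54 against -1.54, and a log2 fold change of 6.23 for C4b (adjusted p 0.000597 in edgeR). For Mrc1/Stab1 over Col3a1/Pi16 barcodes the median was -0.42 against -1.27, with 1 gene higher and 1 lower. Between Col3a1/Pi16 and Epcam/Muc2 barcodes C3 stood 4.69 above the median log2 fold change with TMM factors and 4.78 above it with median-ratio factors, and C4b 2.37 and 2.35 above it. Set against Epcam/Muc2 barcodes, Mrc1/Stab1 barcodes had C4b at 5.0 above it with TMM factors and 5.69 above it with median-ratio factors.

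**Figure D4:**
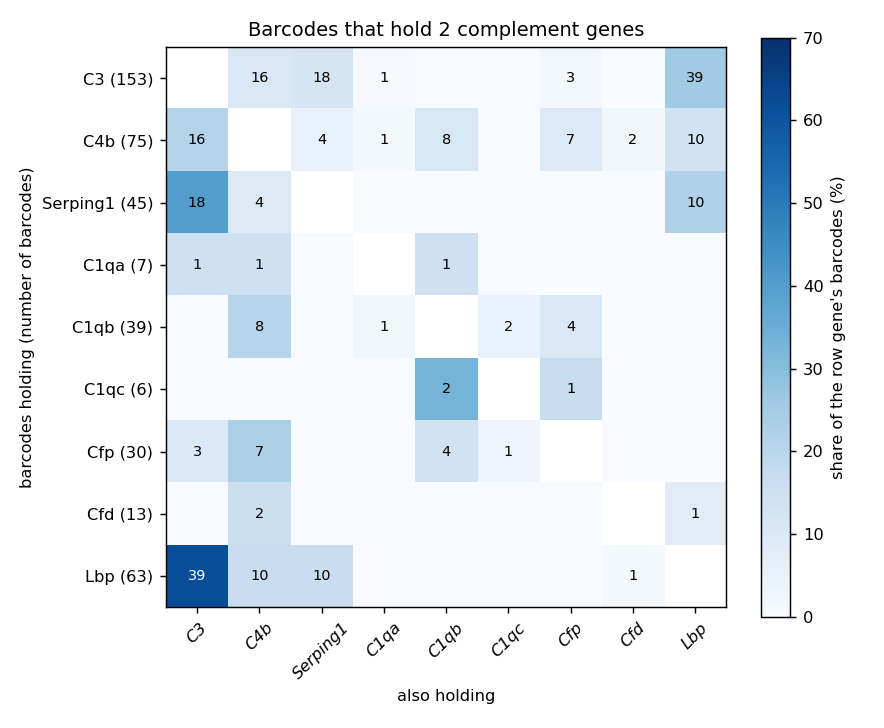
Numbers of barcodes that held UMIs of 2 complement genes, coloured by the share of the row gene's barcodes in percent. The diagonal is left blank, and squares with no number are 0. Lbp shares 39 of its 63 barcodes with C3, and C1qb shares 8 with C4b and 0 with C3.

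Several members were found in the same barcodes. C3, Lbp and Serping1 shared barcodes with one another (39 for C3 and Lbp, 18 for C3 and Serping1, 10 for Serping1 and Lbp), and C1qb shared 8 barcodes with C4b, 4 with Cfp and 0 with C3, Lbp or Serping1. C4b also shared 16 barcodes with C3 and 10 with Lbp, and Cfp shared 3 with C3. C1qb was found in 39 of 8588 barcodes, and at these numbers its zeros do not set it apart from the other genes. Deeper barcodes hold more of any gene, and the barcodes with a member had medians of 109 to 248.5 UMIs, against 34 in unsorted barcodes. Over 28 sums of mice and barcode groups, the genes whose log2(UMIs per 10000 + 1) was most correlated with each member were also compared among 3752 genes. For C3 they were Lsp1, Meis2 and Tnxb (Pearson r 0.895, 0.894 and 0.889), for Serping1 Plpp3, Htra3 and Thbs3 (0.945, 0.910 and 0.894), and for Lbp Serping1, Polb and Fam114a1 (0.867, 0.864 and 0.843). For C4b they were Dab2, Snx2 and C1qb (0.852, 0.817 and 0.811) and for C1qb Snx2, H2-Eb1 and Arrb2 (0.901, 0.878 and 0.865). The sums share mice and libraries and many are shallow, so these values only describe them.

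The remaining complement genes were sparser. Of 48 listed, 46 were found in the matrices, 40 had at least 1 UMI and 35 had fewer than 10 or none. Cd55, a receptor that disassembles C3-cutting enzymes on host cells, had 75 UMIs, 33 of them in Col3a1/Pi16 and 12 in Epcam/Muc2 barcodes. It was higher in Col3a1/Pi16 than in Epcam/Muc2 barcodes (log2 fold change 4.22, SE 1.13, adjusted p 0.00147 in edgeR, and 5.78 with median-ratio size factors). Cfb, factor B of the alternative pathway, had 41 UMIs, of which 21 lay in Epcam/Muc2 and 2 in Col3a1/Pi16 barcodes.

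Clu, which keeps the membrane attack complex from inserting, had 22 UMIs, 8 of them in Epcam/Muc2 barcodes and 0 in both other groups. C1s1, a C1 protease, had 21 UMIs (4 in Col3a1/Pi16 and 5 in Epcam/Muc2 barcodes), and Cd46, a membrane cofactor for C3b breakdown, had 18 (9 in Epcam/Muc2 barcodes). Fcna, a macrophage lectin that starts the lectin pathway, had 12 UMIs, 6 of them in Mrc1/Stab1 barcodes, and the integrin chain Itgb2 of the C3 fragment receptors had 15, with 5 there. Among the 12 with the most UMIs were also Cr1l with 13, Itgam with 12, C5ar1 with 11 and C1qbp with 8.

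The next comparison set the diets against each other over all barcodes of each mouse, where fewer cells of a type and less RNA per cell cannot be told apart. C3 had 26, 16, 8 and 11 UMIs in fish oil/pectin mice 1 to 4, or 7.48, 1.04, 0.529 and 0.548 per 10000, against 248, 48, 0 and 11 UMIs in the corn oil/cellulose mice 1 to 4, or 12.8, 4.80, 0 and 0.448 per 10000. The range of the fish oil/pectin mice, 0.529 to 7.48, lay within that of the corn oil/cellulose mice, 0 to 12.8. The means were 2.40 ± 3.40 in fish oil/pectin mice and 4.52 ± 5.95 in corn oil/cellulose mice (SD, n = 4 each). Corn oil/cellulose mouse 1 held 67.4% of all C3 UMIs, and the 3 highest values were those of fish oil/pectin mouse 1 and corn oil/cellulose mice 1 and 2, all of pool 1.

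**Figure D5:**
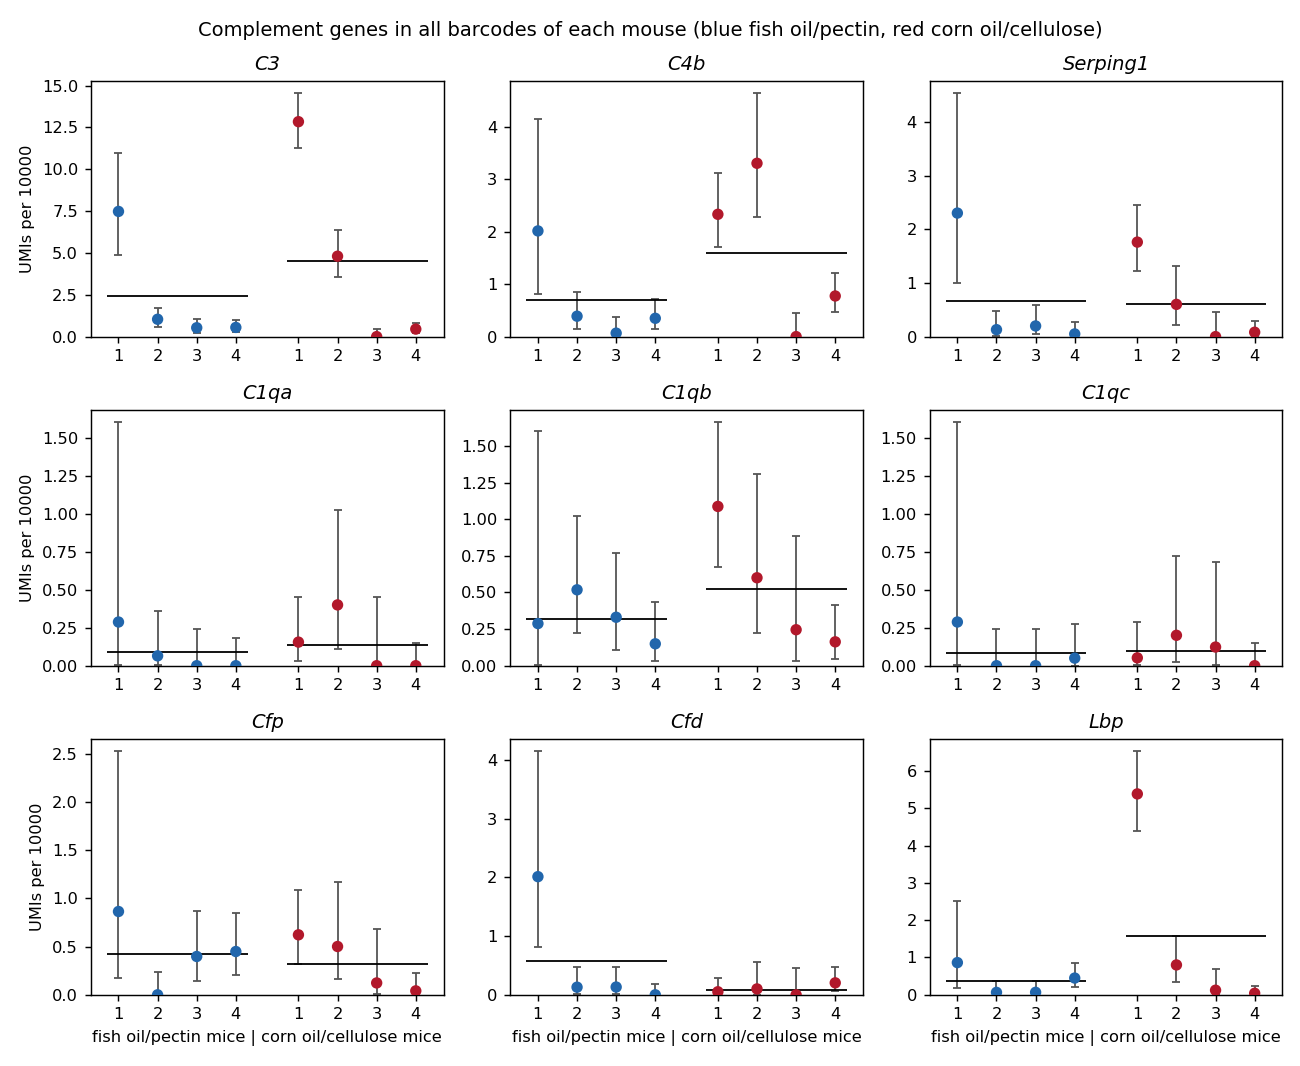
UMIs of each complement gene per 10000 UMIs of the mouse over all barcodes, with exact Poisson 95% intervals, blue for the 4 fish oil/pectin mice on the left and red for the 4 corn oil/cellulose mice on the right. Black lines are means. The diets overlap in all 9 panels, and fish oil/pectin mouse 1 and corn oil/cellulose mice 1 and 2 stand highest for C3, C4b, Serping1 and Lbp.

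Lbp had 3, 1, 1 and 9 UMIs in fish oil/pectin mice 1 to 4, or 0.863, 0.0648, 0.0662 and 0.448 per 10000, against 104, 8, 1 and 1 UMIs in the corn oil/cellulose mice 1 to 4, or 5.39, 0.801, 0.123 and 0.0407 per 10000. The means were 0.361 ± 0.381 and 1.59 ± 2.56 (SD, n = 4 each) in fish oil/pectin and corn oil/cellulose mice. All but corn oil/cellulose mouse 1 stood below 0.87, and that mouse held 81.2% of all Lbp UMIs. Serping1 had 8, 2, 3 and 1 UMIs in fish oil/pectin mice 1 to 4, or 2.30, 0.130, 0.199 and 0.0498 per 10000, against 34, 6, 0 and 2 UMIs in the corn oil/cellulose mice 1 to 4, or 1.76, 0.60, 0 and 0.0815 per 10000. Its diets overlapped, with 1 high mouse in each.

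C4b had 7, 6, 1 and 7 UMIs in fish oil/pectin mice 1 to 4, or 2.01, 0.389, 0.0662 and 0.349 per 10000, against 45, 33, 0 and 19 UMIs in the corn oil/cellulose mice 1 to 4, or 2.33, 3.30, 0 and 0.774 per 10000. The means were 0.704 ± 0.885 in fish oil/pectin mice and 1.60 ± 1.49 in corn oil/cellulose mice (SD, n = 4 each). In corn oil/cellulose mice C4b reached the highest value and, with 0 UMIs, also the lowest. C1qb had 1, 8, 5 and 3 UMIs in fish oil/pectin mice 1 to 4, or 0.288, 0.518, 0.331 and 0.149 per 10000, against 21, 6, 2 and 4 UMIs in the corn oil/cellulose mice 1 to 4, or 1.09, 0.60, 0.246 and 0.163 per 10000. C1qb had UMIs in all 8 mice, and its diets overlapped.

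Cfp had 3, 0, 6 and 9 UMIs in fish oil/pectin mice 1 to 4, against 12, 5, 1 and 1 UMIs in the corn oil/cellulose mice 1 to 4. Cfd had 7, 2, 2 and 0 UMIs in fish oil/pectin mice, against 1, 1, 0 and 5 UMIs in corn oil/cellulose mice. C1qa had 1, 1, 0 and 0 UMIs in fish oil/pectin mice, against 3, 4, 0 and 0 in corn oil/cellulose mice, and C1qc 1, 0, 0 and 1, against 1, 2, 1 and 0. For the C1qa, C1qc and Cfd counts a difference between diets was not detectable at this depth. Cfp averaged 0.427 ± 0.353 UMIs per 10000 in fish oil/pectin mice and 0.321 ± 0.283 in corn oil/cellulose mice (SD, n = 4 each), and Cfd averaged 0.569 ± 0.965 and 0.0889 ± 0.0868 in the same order of diets.

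Over all barcodes 4471 genes were tested and edgeR called 0 (0%) at an adjusted p under 0.05, with 108 at an unadjusted p under 0.05, and DESeq2 also called 0, with 139 at an unadjusted p under 0.05. The 5 members that passed the filter had log2 fold changes, fish oil/pectin over corn oil/cellulose, of -2.53 (SE 1.27) for Lbp, -1.52 (SE 0.98) for C4b, -0.93 (SE 1.26) for C3, -0.25 (SE 0.76) for C1qb and 0.42 (SE 0.94) for Cfp, all with an adjusted p of 0.999 in edgeR. Serping1, C1qa, C1qc and Cfd did not pass the filter. The intervals were wide, with 95% limits of -5.30 and 0.24 for Lbp and of -3.67 and 1.81 for C3, so sizeable differences in either direction lie within that of C3. Of the other complement genes Cd55 and Cfb had log2 fold changes of -0.14 (SE 0.71) and -0.95 (SE 0.64) and an adjusted p of 0.999 each in edgeR.

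The directions of C3 and Lbp rested on corn oil/cellulose mouse 1. Without that mouse the log2 fold change was 0.38 (SE 1.34) for C3 and 0.05 (SE 0.90) for Lbp. A pool term in the fit gave 0.77 (SE 1.23) for C3, -0.03 (SE 3.89) for Lbp, -0.59 (SE 0.85) for C4b and 0.53 (SE 0.95) for C1qb. Within pool 1 the mean levels of C3 were 7.48 in 1 fish oil/pectin mouse and 5.88 in 3 corn oil/cellulose mice, and within pool 2 they were 0.705 in 3 fish oil/pectin mice and 0.448 in 1 corn oil/cellulose mouse. For Lbp they were 0.863 and 2.10 in pool 1 and 0.193 and 0.0407 in pool 2, for fish oil/pectin and corn oil/cellulose mice. C4b was at 2.01 and 1.88 in pool 1 and at 0.268 and 0.774 in pool 2, in the same order of diets.

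Within the barcode groups the diets could be compared only in part. Too few mice had 10 Col3a1/Pi16 barcodes or 10 Mrc1/Stab1 barcodes for the tests that had been chosen. With at least 5 Col3a1/Pi16 barcodes, a minimum set after seeing the data, 46 genes could be tested, edgeR called 0 (0%), with 0 at an unadjusted p under 0.05 (DESeq2 0 and 2), and C3, the only member tested, had a log2 fold change of -1.55 (SE 0.91, adjusted p 0.923 in edgeR). That value was -0.77 (SE 1.17) without corn oil/cellulose mouse 1 and -0.12 (SE 1.22) with a pool term. It was -2.34 (SE 0.85) in barcodes of at least 100 UMIs, -2.30 (SE 1.01) without fish oil/pectin mouse 1 and -2.14 (SE 1.00) without corn oil/cellulose mouse 4, and the adjusted p over all its alternatives ran from 0.326 to 0.993 in edgeR and DESeq2. In Epcam/Muc2 barcodes edgeR called 1 of 1065 genes (0.0939%), Epb41, a membrane skeleton gene named after its value was seen, and no complement member passed the filter there.

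The shares of barcodes in the 3 groups, which bear on every sum above, did not differ between the diets beyond the spread among mice. Mrc1/Stab1 barcodes made up 0.255 ± 0.299% of barcodes in fish oil/pectin mice and 0.778 ± 0.997% in corn oil/cellulose mice (SD, n = 4 each, two-sided exact permutation p = 0.486, adjusted over 3 shares 0.714). Col3a1/Pi16 barcodes made up 4.86 ± 4.83% in fish oil/pectin mice and 4.08 ± 4.72% in corn oil/cellulose mice (n = 4 each, exact permutation p = 0.457, adjusted 0.714). Epcam/Muc2 barcodes made up 23.6 ± 18.1% in fish oil/pectin mice and 28.1 ± 21.3% in corn oil/cellulose mice (n = 4 each, exact permutation p = 0.714, adjusted 0.714). The smallest p this design allows is 0.0286. Over all barcodes, fish oil/pectin mouse 1 with 12.1% and corn oil/cellulose mouse 2 with 11.2% had the highest shares of Col3a1/Pi16 barcodes. Corn oil/cellulose mouse 1, the highest in C3, had the lowest share, 1.56%, with a median of 26 UMIs per barcode. In barcodes of at least 100 UMIs its share was 14.3%, and after thinning to 100 UMIs it was 10.6%. Only fish oil/pectin mouse 1 stood higher in these settings, with 16.3% and 15.6%.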

How the data were processed

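Fixed-tissue RNA of 8 mouse colons was measured with the probe-based Flex assay. The deposited matrices hold raw UMI counts per gene and barcode, whole numbers that the authors did not normalize in these files. The submitters' processing notes name Cell Ranger 8.0.0 and the builds mm10 and GRCm39, without saying which step used which, and any filter on barcodes or genes before deposit is not given in the sources used here. Probes count only the stretch they bind, and probe sequences and their strand were not checked here. Every deposited barcode was kept, no doublet caller was run, and barcodes that held genes of more than 1 group were set apart.

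Counts were summed per mouse and per mouse and barcode group, so the mouse is the replicate, 1 library each. Sums were compared with edgeR 4.0.16 (quasi-likelihood test, robust, TMM factors, filterByExpr with a minimum count of 5, Benjamini-Hochberg adjusted p under 0.05 over all genes tested) in R 4.3.3, with DESeq2 1.42.0 as an alternative, and limma 3.58.1 was loaded by edgeR. The 6 sorting genes were taken out of the fits within and between groups. A sum needed 10 barcodes, and a diet fit needed 3 mice per diet. Tested on simulated data, the diet fit over all barcodes (4489 genes) recovered 98 of 99 genes changed by 4 on the log2 scale and 31 of 93 changed by 2. The group fit (399 genes) recovered 85 of 89 and 31 of 69. The simulation gave every gene the same dispersion and held no differences of pool or cell makeup between mice. Its recovery therefore does not carry over to genes that vary more among mice. Shares of barcodes were compared with exact permutation tests over the 70 assignments of mice to diets. Levels are UMIs per 10000 UMIs, and a count of 0 is read against a limit of 3 UMIs over the library or group. Folds given as at least set the observed level of the other group against that limit, without the counting error of that level. For 0 UMIs the exact interval reaches higher than this limit (6.13 against 4.98 per 10000 in Mrc1/Stab1 barcodes), and with it these folds would be smaller. Intervals cover counting error only, and were exact Poisson intervals at the 95% level (Python 3.11.15, scipy 1.17.1, numpy 2.4.6, pandas 2.3.3, matplotlib 3.10.9). Depth was 34758 to 245476 UMIs per mouse.

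No pair of libraries agreed within sampling noise (the lowest chi-square per degree of freedom over 28 pairs was 3.40), so all 8 were kept. Pools were inferred from shared droplet barcodes, the first 16 of 24 bases, as the split into 2 sets of 4 libraries with the most sharing. Same-numbered mice of the diets deviated from their diet means with correlations of 0.228, -0.235, -0.128 and 0.289, so the numbers do not pair them. For shares of barcodes with a gene, barcodes were thinned to 100 UMIs, which kept 1376 barcodes of fish oil/pectin mice and left out 951, and kept 1256 of corn oil/cellulose mice and left out 5005.

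Gene positions are from GENCODE M21 on GRCm38, and promoter windows are from RefSeq on GRCm38.p6, where 5 of 9 members were found. The members, marker lists and lists of other complement genes were chosen with earlier results of these data known. Named genes were the 9 members, the 12 other complement genes with the most UMIs (1 of them is not reported here), 4 genes of lipopolysaccharide binding, and for members with at least 50 UMIs the 3 genes of at least 50 UMIs with the most similar levels over sums of at least 500 UMIs.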

Additional observations from a re-analysis of the deposited data

Results flagged for a closer look

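Of 24 groups of 4 mice examined for a value far from the others, 7 held one. The rate of about 1 in 20 expected by chance holds for independent, normally distributed values. Many values here are low counts and the groups share the same mice, so the 7 cannot be set against that rate. Most of the 7 were of fish oil/pectin mouse 1. C3 stood at 7.48 UMIs per 10000 in fish oil/pectin mouse 1, far above the other 3 mice of its diet. C4b at 2.01, Serping1 at 2.30 and Cfd at 2.01 UMIs per 10000 stood apart in the same mouse. Its share of Col3a1/Pi16 barcodes, 12.1%, also stood apart within its diet, as did that of corn oil/cellulose mouse 2, with 11.2%, both over all barcodes. In barcodes of at least 100 UMIs, corn oil/cellulose mouse 2 had 13.2% and corn oil/cellulose mouse 1 had 14.3%. Fish oil/pectin mouse 1 had the fewest UMIs, 34758, and the most adipocyte marker UMIs, 28.2 per 10000, and its 7 C4b UMIs, 8 Serping1 UMIs and 7 Cfd UMIs leave wide counting intervals. Lbp stood at 5.39 UMIs per 10000 in corn oil/cellulose mouse 1, with 104 UMIs, in the library with the most and the shallowest barcodes. The part of cell makeup, depth and pool in these values was not tested.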

How the results depend on the processing

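The diet tests chosen for Col3a1/Pi16 and Mrc1/Stab1 barcodes of mice with at least 10 of them could not be fitted, because fewer than 3 mice per diet had enough. The minimum of 5 barcodes, the removal of barcodes led by hepatocyte genes and the fit of Col3a1/Pi16 barcodes by diet were added after seeing the data. Over all barcodes the 0 genes called by diet became 4 with no filter on low counts and 0 to 1 without 1 mouse at a time, and stayed at 0 with the replicate block. In Epcam/Muc2 barcodes the 1 gene called became 2 with no filter, 2 without haemoglobin and mitochondrially encoded genes, 2 without barcodes led by hepatocyte genes, 5 with at least 2 UMIs of the sorting genes, and 0 in DESeq2, with the replicate block or with the pool as a covariate, and ran from 0 to 30 without 1 mouse. In Col3a1/Pi16 barcodes 0 became 2 with at least 2 UMIs of the sorting genes, and remained 0 without any 1 mouse.

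Between Col3a1/Pi16 and Epcam/Muc2 barcodes the 125 calls became 20 in barcodes of at least 100 UMIs, 46 with at least 2 UMIs of the sorting genes and 228 with at least 5 barcodes per sum, and ran from 54 to 143 without 1 mouse. The first and second of these settings gave no value for the other pairs of groups. C3 stayed called higher in Col3a1/Pi16 barcodes under all 13 alternatives, with log2 fold changes of 3.51 to 7.83. The fit with no filter on low counts was among them. In the main fit C3 passed that filter only through its Col3a1/Pi16 sums. For all 3 pairs of groups, 1 of the alternatives, without barcodes led by hepatocyte genes, only repeated the main fit. These barcodes are of fish oil/pectin mouse 4, which is not in that fit. Between Mrc1/Stab1 and Epcam/Muc2 barcodes the 43 calls became 20 with median-ratio factors, 13 with no filter, 16 in DESeq2, 10 without haemoglobin and mitochondrially encoded genes and 71 with at least 5 barcodes, and ran from 4 to 51 without 1 mouse. Between Mrc1/Stab1 and Col3a1/Pi16 barcodes the 3 calls became 0 in DESeq2, 1 without haemoglobin and mitochondrially encoded genes and 0 with at least 5 barcodes, and ran from 0 to 5 without 1 mouse. Without corn oil/cellulose mouse 1 or 2 there was 1 Mrc1/Stab1 sum, which is assumed to vary like the other sums. The log2 fold change of C3 between Mrc1/Stab1 and Epcam/Muc2 barcodes turned to 0.93 in DESeq2, where the group has 0 C3 UMIs. With at least 5 barcodes per sum Lbp was called higher in Col3a1/Pi16 than in Epcam/Muc2 barcodes (log2 fold change 2.81, adjusted p 0.00720 in edgeR) and Cfp and C4b higher in Mrc1/Stab1 than in Epcam/Muc2 barcodes (5.28 and 3.80, adjusted p 0.0235 each in edgeR). All Epcam/Muc2 barcodes together held 9 Lbp, 4 Cfp and 9 C4b UMIs, so these members too passed the filter through other groups.

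The diet log2 fold changes of members over all barcodes turned sign as follows, none of them called. Values within a pool are another measure, the difference of mean log2 CPM with 0.5 UMIs added per library, of 1 mouse against 3. They need not follow the mean levels: those of Lbp in pool 1 (0.863 and 2.10 UMIs per 10000 in fish oil/pectin and corn oil/cellulose mice) run the other way, and corn oil/cellulose mouse 3 of pool 1 had 0 UMIs of C3 and C4b. C3 was 0.77 with the pool as a covariate, 2.28 within pool 1, 0.58 within pool 2 and -2.14 to 0.38 without 1 mouse. Lbp was 0.0891 within pool 1, 1.44 within pool 2 and -2.95 to 0.0507 without 1 mouse. C4b was 1.46 within pool 1. C1qb was 0.00747 with the replicate block, 0.53 with the pool as a covariate, 0.83 within pool 2 and -0.73 to 0.44 without 1 mouse, and Cfp -0.28 to 1.23 without 1 mouse. The diet difference in the share of Col3a1/Pi16 barcodes was -1.61 percentage points in barcodes of at least 100 UMIs, -0.219 after thinning and -1.62 to 3.15 without 1 mouse, and that of Epcam/Muc2 barcodes -12.4 to 4.65 without 1 mouse. The cause of these changes was not tested. Depth limits all of this: 6 of the 9 members had 56 UMIs or fewer over 8 mice.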
